A study of Mus musculus with 12 samples.

Results

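The nuclear genes that encode the subunits of the mitochondrial respiratory chain were followed in mouse bone-marrow-derived macrophages (BMDMs) given ADP-Hep or PBS. Genes were taken by symbol: those that start with Ndufa, Ndufb, Ndufc, Ndufs, Ndufv, Uqcr, Cox4 to Cox8 or Atp5, and Sdha, Sdhb, Sdhc, Sdhd and Cyc1. Symbols that start with Ndufaf (assembly factors) or contain -ps (pseudogenes) were left out. Of the genes in the rows used, those of the count table in which KO and WT columns line up with the gene names, 90 matched, and the 80 with at least 60 counts summed over all 12 libraries were kept. They comprised 36 genes of complex I, 4 of complex II, 9 of complex III, 14 of complex IV and 17 of complex V. The 10 genes left out were Cox6b2 with 27 counts, Cox4i2 with 16, Cox8b with 9, Cox6c2 with 7, Ndufs6b with 6, Ndufa11b with 5, Ndufa4l2 with 1, and Cox7b2, Cox8c and Ndufb4c with 0. Of these, Cox6c2, Ndufs6b, Ndufa11b and Ndufb4c are annotated as processed pseudogenes. The lowest genes kept were Cox6a2 with 267 counts and Cox7a1 with 436. All 80 passed the filter on low counts, so none was lost before testing.

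The respiratory chain passes electrons from NADH (complex I) and succinate (complex II) through ubiquinone to complex III, cytochrome c and complex IV, where oxygen is reduced. Protons pumped by complexes I, III and IV drive ATP synthesis at complex V, while complex II pumps none and is also an enzyme of the citric acid cycle. Most subunits are encoded in the nucleus and a few in mitochondrial DNA, and macrophages activated by bacterial products are known for changing their use of this chain and of succinate.

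BMDMs were grown from marrow of C57BL/6N mice for 7 days in L929-conditioned medium, and came from wild-type mice (WT) or from mice lacking Alpk1 (Alpk1-/-, KO). Alpk1 encodes a kinase of innate immunity that ADP-heptose (ADP-Hep), made by Gram-negative bacteria, activates. The 4 groups of 3 libraries were WT cells with 100 µM ADP-Hep for 4 h (WT ADP-Hep), WT cells with PBS (WT PBS), KO cells with ADP-Hep (KO ADP-Hep) and KO cells with PBS (KO PBS). The labels do not say whether libraries of a group came from separate mice or cultures, so the p-values reflect how far the libraries of a group spread, and that spread may be technical. Of the KO ADP-Hep libraries, 1 had a column number that matched no label, and it is called the library with no number. Per-library values are given in the order replicate 1, 2 and 3, and for KO ADP-Hep in the order replicate 1, replicate 3 and the library with no number.

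Libraries held between 16110654 and 31333973 counts, and the rows used kept between 12307826 and 25742912. The 8 macrophage markers summed to 24841 to 27985 CPM (counts scaled to library size) in every library, whereas dendritic cell, T cell, NK cell, fibroblast, erythroid and mast cell markers summed to at most 2.28 CPM each. The 8 neutrophil markers summed to 167 to 268 CPM, and the 4 B cell markers to 7.69 to 17.9 CPM. Alpk1 itself had 53.8, 55.3 and 52.3 CPM in WT ADP-Hep, 30.1, 32.1 and 25.9 in WT PBS, 21.6, 19.2 and 22.5 in KO ADP-Hep and 22.3, 20.3 and 21.3 in KO PBS. Which exons the KO allele lacks is not given in the sources used here, and reads outside them do not check the genotype, but the KO libraries were the lowest. Because these are bulk samples, fewer cells of a type and less RNA per cell cannot be told apart.

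Levels of the 80 genes are given as CPM scaled by TMM, and between genes as CPM per kilobase of the median coding transcript. On the per-kilobase scale, over all libraries, the median gene of complex II stood at 139, that of complex V at 118, that of complex IV at 109.8, that of complex III at 90.9 and that of complex I at 47.3. The highest was Atp5b, the catalytic beta subunit of ATP synthase, at 369 CPM per kilobase, followed by Cox4i1, the ubiquitous subunit 4 of cytochrome c oxidase, at 298, Atp5a1, the alpha subunit of ATP synthase, at 263, and Uqcrc1, a core protein of complex III, at 260.0. The lowest was Cox6a2, the heart and muscle isoform of subunit 6a, at 1.90, against 195 for its ubiquitous counterpart Cox6a1. Cox7a1, the muscle isoform of subunit 7a, stood at 4.77, against 108 for Cox7a2. Of the 3 genes for the c subunit of the ATP synthase rotor, Atp5g3 stood at 209.5 CPM per kilobase, Atp5g2 at 24.6 and Atp5g1 at 12.2. The order of Atp5g2 and Atp5g1 rests on the length divisor, 683 bases for Atp5g2 and 2675 for Atp5g1, since in CPM Atp5g1 had 32.5 and Atp5g2 16.8. The divisor is a median over annotated coding transcripts, short ones included, and was 533 bases for Uqcrc1 and 651 for Ndufs1. Ranks between genes and between complexes depend on it. In CPM, Uqcrc1 had 139, below Sdha at 326, which stood at 180 on the per-kilobase scale. The median genes had 132 CPM in complex II, 72.3 in IV, 63.4 in III, 63.2 in V and 37.6 in I.

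Promoter sequences are shown for 4 genes whose levels the comparisons turn on: the catalytic pair of complex II, which fell in WT cells, and Cox5a and Atp5b, which rose. Each runs 5′ to 3′ from 250 bases before to 50 bases after the start, from RefSeq on GRCm38.p6, and capitals mark matches to the motifs searched. These were GCGCA, any base, then GCGC for NRF1, CCGGAAG for the ETS family of GABPA, and AANATGGCG for YY1, factors known as regulators of respiratory genes, on both strands. Sdha lies at chr13:74350191-74350490 (minus strand) and holds 3 NRF1 matches, Sdhb at chr4:140961021-140961320 (plus strand) with 1 ETS match, Cox5a at chr9:57520982-57521281 (plus strand) with no match, and Atp5b at chr10:128083057-128083356 (plus strand) with 1 YY1 match on the reverse strand.
Sdha: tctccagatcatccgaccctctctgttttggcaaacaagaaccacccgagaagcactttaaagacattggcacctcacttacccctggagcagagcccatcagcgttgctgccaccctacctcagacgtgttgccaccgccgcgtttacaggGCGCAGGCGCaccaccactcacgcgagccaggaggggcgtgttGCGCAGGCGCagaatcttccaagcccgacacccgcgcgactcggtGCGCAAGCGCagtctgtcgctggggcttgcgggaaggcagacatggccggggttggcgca
Sdhb: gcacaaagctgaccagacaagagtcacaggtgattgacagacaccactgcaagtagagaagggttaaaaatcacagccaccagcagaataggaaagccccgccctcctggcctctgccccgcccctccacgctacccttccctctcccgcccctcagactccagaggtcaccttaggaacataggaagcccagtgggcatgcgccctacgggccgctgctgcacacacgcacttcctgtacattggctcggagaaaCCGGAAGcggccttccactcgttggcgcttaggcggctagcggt
Cox5a: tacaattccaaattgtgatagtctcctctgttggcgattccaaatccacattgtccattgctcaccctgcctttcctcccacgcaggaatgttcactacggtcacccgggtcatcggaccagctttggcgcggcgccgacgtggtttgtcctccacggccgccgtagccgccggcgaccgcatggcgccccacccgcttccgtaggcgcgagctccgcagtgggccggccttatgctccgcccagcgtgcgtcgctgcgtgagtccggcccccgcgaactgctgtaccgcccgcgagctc
Atp5b: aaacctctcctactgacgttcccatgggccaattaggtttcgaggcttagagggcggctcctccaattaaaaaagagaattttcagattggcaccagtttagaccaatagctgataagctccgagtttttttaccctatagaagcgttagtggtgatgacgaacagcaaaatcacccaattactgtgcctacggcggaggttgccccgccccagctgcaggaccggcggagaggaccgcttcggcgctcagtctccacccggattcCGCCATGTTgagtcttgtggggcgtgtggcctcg

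Of the 80 genes, 65 had such a window. The NRF1 motif stood in 17 of the 65 (26.2%), against 5.19% of 27025 genes with a window of the same length. The ETS motif stood in 17 (26.2%), against 9.93%, and the YY1 motif in 10 (15.4%), against 2.76%. Among the 19 matched genes that were higher in WT ADP-Hep, the NRF1 motif stood in 6, the ETS motif in 4 and the YY1 motif in 3. Among the 44 matched genes that were not called in that comparison, the counts were 10, 12 and 7. The 27025 genes were not limited to the 12261 tested here, whereas all 65 were tested, so the shares are not like for like. How often these motifs stand in the other genes tested was not counted. A match is a description of letters and not of binding.

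In WT cells, ADP-Hep went with small changes of respiratory chain mRNA: most of those that passed the test were higher, across complexes I, III, IV and V, while the catalytic subunits of complex II were lower. Of the 80 genes, 27 were higher and 2 lower in WT ADP-Hep than in WT PBS (36.2% called), against 63.5% of all 12261 genes tested (edgeR quasi-likelihood test, Benjamini-Hochberg adjusted p under 0.05), 31.9% higher and 31.6% lower. The share called was thus below the background. The median log2 change was 0.08, against -0.01 over all genes, and the range was -0.32 to 0.80. The fitted change was within 1.5-fold for 79 of the 80 genes, against 71.4% of all genes, and the 95% interval was within 1.5-fold for 75. With libraries scaled by the totals of the rows used, the median of all genes moved to -0.12 and that of the 80 to -0.03, and 6 of the 80 were called higher and 14 lower. Without WT PBS replicate 2, 14 were called higher, and the count called lower was 1 without WT ADP-Hep replicate 2 and 4 without WT ADP-Hep replicate 3.

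**Figure D1:**
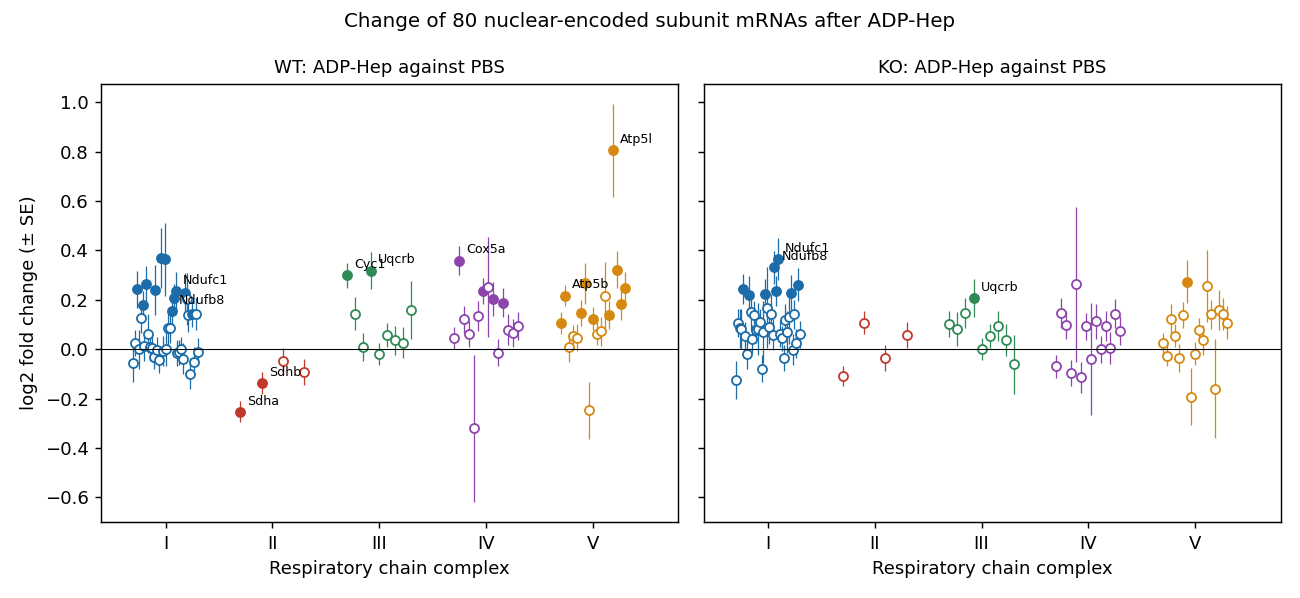
Log2 fold change (± SE) of each of the 80 genes after ADP-Hep, by complex, in WT cells (left) and KO cells (right), with filled points for genes called at adjusted p under 0.05 and open points for the rest. In WT cells 27 filled points lie above 0 and 2, both of complex II, below it, with Atp5l highest at 0.80; in KO cells all 10 filled points lie above 0, 8 of them in complex I. With totals of the rows used as the scaling, 6 were higher and 14 lower in WT cells, and 24 higher and 0 lower in KO cells.

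The libraries of both WT groups did not overlap for 27 of the 80 genes (33.8%), with WT ADP-Hep above in 25 and below in 2, against 65.9% of all genes, 32.7% above and 33.3% below. Of the 29 genes called, 7 kept their call and direction in all 24 other settings except a test against a 1.5-fold change: Cyc1, Uqcrb, Cox5a, Atp5b, Atp5l and Atp5md, which were higher, and Sdha, which was lower. Of the 51 genes not called, 41 had a 95% interval within 1.2-fold and 49 within 1.5-fold. In the same comparison, 3 of the 7 neutrophil markers tested were higher and 1 lower. Of the 8 macrophage markers, 3 were higher and 3 lower. The part of these markers in the result was not tested.

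Complex II, succinate dehydrogenase, had 0 members higher and 2 of 4 lower in WT ADP-Hep, against 31.9% of all genes higher and 31.6% lower. All 4 fitted changes were below 0 in the main scaling and the alternative by totals of the rows used, which called all 4 lower. Sdha, the flavoprotein that oxidises succinate, had 287, 283 and 299 CPM in WT ADP-Hep, against 345, 343 and 347 in WT PBS. The groups did not overlap, and the log2 change was -0.25 ± 0.04 (SE; adjusted p 1.06e-05, edgeR quasi-likelihood test). Sdhb, the iron-sulfur subunit that takes the electrons onward, had 119.9, 117 and 122 CPM in WT ADP-Hep, against 126, 131 and 137 in WT PBS. All 3 WT ADP-Hep libraries were below all WT PBS libraries, and the log2 change was -0.14 ± 0.05 (adjusted p 0.0112). That call was lost without WT PBS replicate 3 or without WT ADP-Hep replicate 2 (adjusted p up to 0.0808) and with totals of all rows as scaling (adjusted p 0.126). The membrane anchors Sdhc and Sdhd were not called, at -0.05 ± 0.05 and -0.09 ± 0.05. Summed over the 4 genes, complex II had 623, 621 and 656 CPM in WT ADP-Hep, against 703, 707 and 720.2 in WT PBS.

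Complex III, the ubiquinol to cytochrome c step, had 2 of 9 members higher (22.2%), against 31.9% of all genes higher. It had 0 members lower (1 lower with totals of the rows used). Cyc1, the cytochrome c1 heme subunit, had 69.6, 74.2 and 75.9 CPM in WT ADP-Hep, against 59.7, 59.9 and 58.6 in WT PBS. No library of one group reached the other, and the log2 change was 0.30 ± 0.05 (adjusted p 1.65e-05). Uqcrb, a small subunit near the quinone site, had 58.3, 52.8 and 48.9 CPM in WT ADP-Hep, against 45.1, 37.6 and 45.9 in WT PBS. The groups did not overlap, and the log2 change was 0.32 ± 0.07 (adjusted p 0.000682). Uqcrb has 3 near-identical genes elsewhere, so its reads may have been split. The most abundant member in CPM, Uqcrc1, was not called, at -0.02 ± 0.04, and nor was Uqcrfs1, the Rieske iron-sulfur protein.

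Complex IV, cytochrome c oxidase, had 4 of 14 members higher (28.6%) and 0 lower, against 31.9% of all genes higher. Cox5a, a subunit on the matrix side, had 84.6, 83.9 and 81.7 CPM in WT ADP-Hep, against 64.9, 59.9 and 69.8 in WT PBS. All WT ADP-Hep libraries were above all WT PBS libraries, and the log2 change was 0.36 ± 0.06 (adjusted p 1.04e-05). Cox5a shares 269 exon bases with Gm26631 on the opposite strand, and whether the counting used strand is not given in the sources used here. Cox6c, Cox7a2 and Cox7b, small membrane subunits, also rose, by 0.23 ± 0.05, 0.20 ± 0.07 and 0.19 ± 0.06 on the log2 scale (adjusted p 0.000439, 0.0131 and 0.00728). Of these 4 rises, the one of Cox5a kept its call with totals of the rows used and the others did not. Cox4i1 at 0.04 ± 0.05, Cox5b at 0.12 ± 0.06, Cox6a1 at 0.06 ± 0.05, Cox8a at 0.07 ± 0.06 and Ndufa4, once assigned to complex I, at 0.09 ± 0.06 were not called. The muscle isoforms were measured less precisely, with -0.32 ± 0.30 for Cox6a2 and 0.25 ± 0.20 for Cox7a1, and were not called. Cox7a2l, which helps complexes III and IV join, stood at -0.01 ± 0.05.

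Complex V, ATP synthase, had 10 of 17 members higher and 0 lower in WT ADP-Hep (58.8%; 3 higher and 1 lower with totals of the rows used), against 63.5% of all genes called, 31.9% higher. Atp5b had 797, 804 and 862 CPM in WT ADP-Hep, against 702, 706 and 710.0 in WT PBS. All 3 WT ADP-Hep libraries were higher, and the log2 change was 0.22 ± 0.04 (adjusted p 7.13e-05). Its partner in the catalytic head, Atp5a1, rose by 0.11 ± 0.04 (adjusted p 0.0328), and Atp5o, which joins the head to the stalk, by 0.25 ± 0.06 (adjusted p 0.0013). Atp5o shares 243 exon bases with other annotated genes on the same strand and 702 on the opposite strand. It also has 1 near-identical gene elsewhere, so its value is uncertain. Atp5md, a small membrane subunit also known as DAPIT, had 28.7, 28.8 and 30.8 CPM in WT ADP-Hep, against 22.2, 20.7 and 26.5 in WT PBS, without overlap (0.32 ± 0.08, adjusted p 0.000641). Of the c subunit genes, Atp5g1 rose by 0.27 ± 0.08 (adjusted p 0.00723) and Atp5g3 by 0.12 ± 0.05 (adjusted p 0.0213). Atp5g2 was not called at -0.25 ± 0.11, but it was called lower in 9 of 24 other settings. Summed over its 17 genes, complex V had 2664, 2711 and 2768 CPM in WT ADP-Hep, against 2418, 2439 and 2527 in WT PBS, without overlap. Atp5b and Atp5a1, at 707 and 677 CPM over all libraries, made up most of that sum.

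The largest change of all 80 genes was that of Atp5l, subunit g of the membrane part of ATP synthase, and it rested on few reads. It had 5.30, 3.88 and 3.28 CPM in WT ADP-Hep, against 2.80, 2.56 and 2.12 in WT PBS. The groups did not overlap, and the log2 change was 0.80 ± 0.19 (adjusted p 0.00066). Atp5l had 688 counts over all libraries, has 9 near-identical genes elsewhere in the genome and shares 133 exon bases with Gm30934 on the opposite strand, so its value is uncertain. Atp5md has 20 near-identical genes and is uncertain for the same reason. The 24 genes of the 80 with a near-identical gene elsewhere included 11 that were higher and 0 lower, and the 56 without one included 16 higher and 2 lower. Sdha, Sdhb, Cyc1, Cox5a and Atp5b are among the 56. On the same strand, 5 of the 80 share exon bases with another gene (Atp5g2, Atp5o, Ndufb2, Ndufb8 and Ndufb9), and on the opposite strand 27 do. Of the 36 genes with neither a near-identical nor an exon-overlapping gene, 9 were higher and 2 lower.

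Complex I, NADH dehydrogenase, had 11 of 36 members higher and 0 lower, against 31.9% of all genes higher. Of the 11, 10 were accessory subunits, which make up 29 of the 36 members. With totals of the rows used, 0 were higher and 8 lower. Ndufa5, an accessory subunit of the peripheral arm, had 28.8, 31.1 and 26.6 CPM in WT ADP-Hep, against 22.5, 23.1 and 26.5 in WT PBS, and the groups were separated by the narrowest of margins (0.26 ± 0.07, adjusted p 0.00281). Ndufb9, of the membrane arm, had 34.2, 34.2 and 33.9 CPM in WT ADP-Hep, against 30.5, 28.1 and 30.0 in WT PBS, without overlap (0.21 ± 0.06, adjusted p 0.00388). It shares 201 exon bases with Gm49356 on the same strand. Ndufa11, also of the membrane arm, rose by 0.24 ± 0.07 (adjusted p 0.00645), and Ndufb2 and Ndufb4, which are present at under 8 CPM, by 0.37 ± 0.12 and 0.36 ± 0.15 (adjusted p 0.0098 and 0.0331). Of the 7 catalytic core subunits, 1 rose, Ndufs8, an iron-sulfur subunit of the quinone module (0.14 ± 0.05, adjusted p 0.0245).

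**Figure D2:**
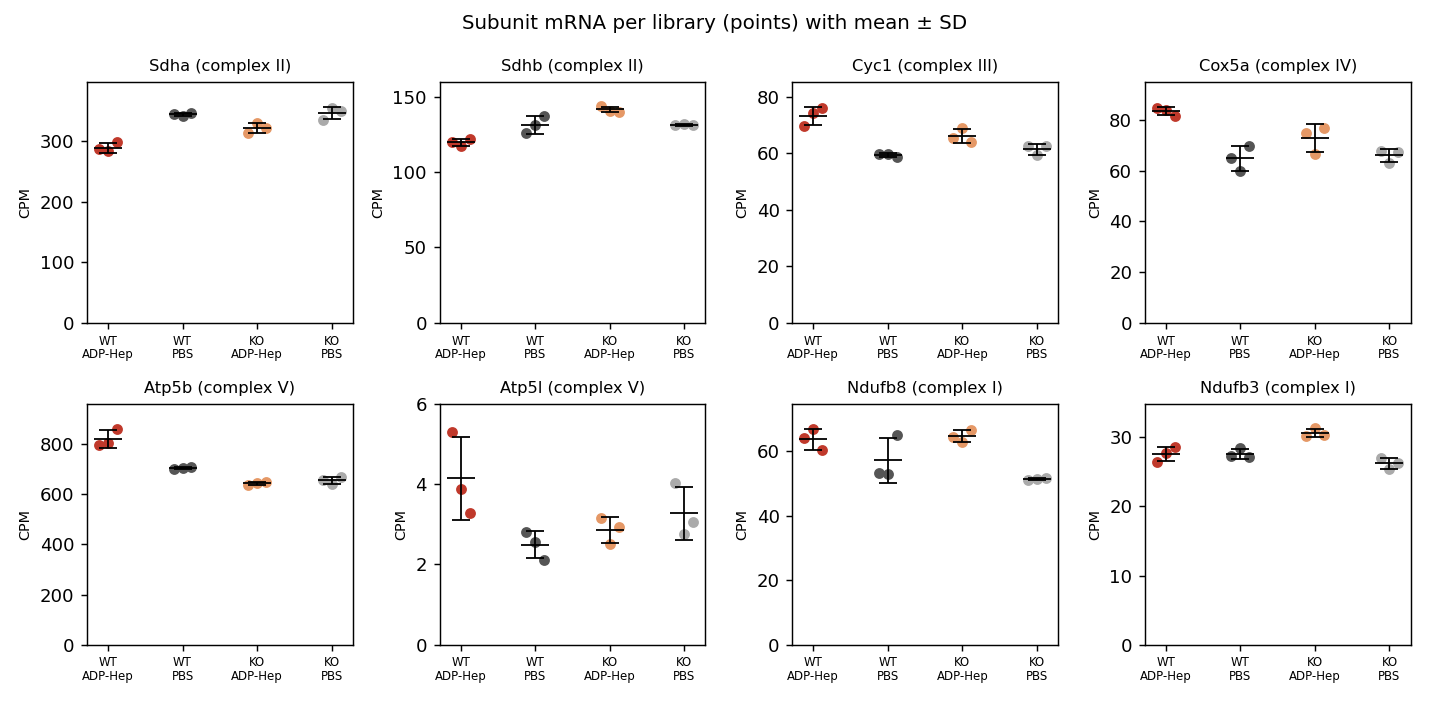
CPM of 8 subunit genes in each library (points), with group mean and SD (bars), for WT ADP-Hep, WT PBS, KO ADP-Hep and KO PBS, on axes that start at 0. Sdha and Sdhb were lowest and Cyc1, Cox5a and Atp5b highest in WT ADP-Hep, with Atp5b at 797 to 862 CPM there against 702 to 710.0 in WT PBS, while Ndufb3 was highest in KO ADP-Hep.

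In KO cells, which lack the sensor kinase, the genes that passed the test were all higher after ADP-Hep. Most were accessory subunits of complex I, and no member of complexes II or IV was called in the main fit. Of the 80 genes, 10 were higher and 0 lower in KO ADP-Hep than in KO PBS (12.5%), against 28.9% of all genes tested (edgeR quasi-likelihood test, Benjamini-Hochberg). They were 8 genes of complex I, Uqcrb of complex III and Atp5g1 of complex V. The median log2 change was 0.08, against 0.01 over all genes, and no fitted change was past 1.5-fold, against 8.2% of all genes (13.7% of all genes were called higher and 15.3% lower). With totals of the rows used, 24 were higher and 0 lower, with totals of all rows 2 and 0. Without KO ADP-Hep replicate 1, 6 were higher, and without this library and KO PBS replicate 1, the 2 libraries lowest in mitochondrially encoded mRNA, 4 were. At an unadjusted p under 0.05 (edgeR quasi-likelihood test), 21 of the 80 passed in either direction, a lower share than the 4783 of all 12261 genes. Limma-voom, the DESeq2 Wald test and a minimum of 1 CPM in 3 libraries each called 1 lower, of complex II. With totals of the rows used, 1 gene of complex II and 2 of complex IV were higher. Complex IV also had 2 higher with no filter beyond 1 count and with only the groups compared.

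Ndufb8, an accessory subunit of the membrane arm, had 64.3, 62.9 and 66.6 CPM in KO ADP-Hep, against 51.2, 51.4 and 51.7 in KO PBS. All KO ADP-Hep libraries were above all KO PBS libraries, and the log2 change was 0.33 ± 0.07 (adjusted p 0.000482). It shares 134 exon bases with Gm20538 on the same strand. Ndufc1, a small membrane arm subunit, had 28.2, 25.8 and 29.4 CPM in KO ADP-Hep, against 21.8, 23.4 and 19.6 in KO PBS, also without overlap (0.36 ± 0.08, adjusted p 0.00181). Both kept their call in all 24 settings other than the test against a 1.5-fold change. Ndufv2, a core iron-sulfur subunit of the module that oxidises NADH, rose by 0.26 ± 0.07 (adjusted p 0.00468), and the accessory subunits Ndufa13, Ndufb9 and Ndufb3 by 0.24 ± 0.06, 0.24 ± 0.06 and 0.22 ± 0.06 (adjusted p 0.00392, 0.00477 and 0.00858). Uqcrb at 0.21 ± 0.08 and Atp5g1 at 0.27 ± 0.09 lay nearer the threshold (adjusted p 0.0443 and 0.0215). Summed over 36 genes, complex I had 1495 to 1548 CPM in KO ADP-Hep, against 1401 to 1446 in KO PBS.

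The groups did not overlap for 28 of the 80 genes in KO cells (35%), 25 above and 3 below, against 42.1% of all genes, 21.1% above and 20.9% below. The neutrophil markers moved in this comparison too: 5 of the 7 tested were lower in KO ADP-Hep, and all 8 summed to 167 to 177 CPM in KO ADP-Hep, against 239.9 to 268 in KO PBS. Their part in the result was not tested. The comparisons in WT and KO cells use separate libraries, and 6 genes were higher in both, 21 in WT cells but not in KO cells, and 4 in KO cells but not in WT cells. Of the 21, 4 differed between genotypes by the test of the difference itself.

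The difference between the responses, WT minus KO, asks which changes depended on genotype. It was called for 8 of the 80 genes, 5 higher and 3 lower (10%), against 49.5% of all genes tested (edgeR quasi-likelihood test, Benjamini-Hochberg), and the median over the 80 was 0.00, against -0.01 over all genes. Those higher were Atp5l of complex V (0.96 ± 0.28, adjusted p 0.00547), Cox6b1, a subunit of complex IV that faces the intermembrane space (0.25 ± 0.09, adjusted p 0.0224), Atp5b (0.24 ± 0.06, adjusted p 0.00136), Cox5a (0.21 ± 0.09, adjusted p 0.0422) and Cyc1 (0.20 ± 0.07, adjusted p 0.0289). Those lower were Sdhb (-0.24 ± 0.06, adjusted p 0.00264), Ndufb3 (-0.23 ± 0.09, adjusted p 0.0328) and Sdha (-0.14 ± 0.06, adjusted p 0.0469). With totals of the rows used, 1 of the 80 was higher and 28 were lower, while with totals of all rows 3 were higher and 0 lower. The count called higher was 3 without WT ADP-Hep replicate 2 or 3, KO PBS replicate 1 or 3 or KO ADP-Hep replicate 1, and 8 without WT PBS replicate 3. The count called lower was 1 without WT PBS replicate 2 or WT ADP-Hep replicate 1 or 2. Atp5l kept its call in all 23 other settings with a value except the test against a 1.5-fold change, and Atp5b and Sdhb in 22 of the 23. Sdha kept it in 7, Cyc1 in 11, Cox5a in 12, Ndufb3 in 14 and Cox6b1 in 18.

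Side by side, the log2 change of Sdhb was -0.14 ± 0.05 in WT cells and 0.11 ± 0.05 in KO cells, where it was not called (adjusted p 0.076). Its KO libraries had 144, 141 and 140.0 CPM in KO ADP-Hep, against 131, 132 and 131 in KO PBS. The KO ADP-Hep libraries were thus all above the KO PBS libraries, the opposite order to that in WT cells. For Sdha the changes were -0.25 ± 0.04 in WT cells and -0.11 ± 0.04 in KO cells, with 314, 330.3 and 322 CPM in KO ADP-Hep, against 335, 356 and 351 in KO PBS. Every KO ADP-Hep library was thus below every KO PBS library for Sdha, the same order as in WT cells. For Atp5b they were 0.22 ± 0.04 in WT cells and -0.03 ± 0.04 in KO cells, with 636, 647 and 648 CPM in KO ADP-Hep, against 659, 640.3 and 668 in KO PBS. Those KO groups overlapped. Ndufb3 stood at -0.01 ± 0.06 in WT cells, with 26.4, 27.7 and 28.6 CPM in WT ADP-Hep and 27.3, 28.4 and 27.1 in WT PBS. In KO cells it stood at 0.22 ± 0.06, with 30.2, 31.3 and 30.3 CPM in KO ADP-Hep, against 27.0, 25.4 and 26.3 in KO PBS, without overlap.

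**Figure D3:**
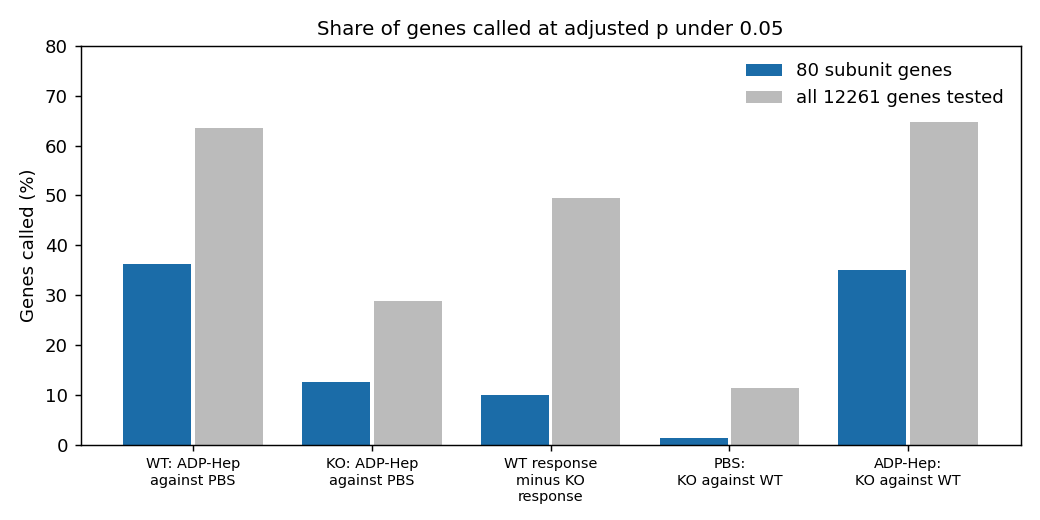
Share of genes called at adjusted p under 0.05 (either direction) among the 80 subunit genes (blue) and all 12261 genes tested (grey), in each of 5 comparisons. The share among the 80 is lower in every comparison, from 36.2% against 63.5% for WT ADP-Hep against WT PBS to 1.25% against 11.4% for KO PBS against WT PBS.

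Under PBS, few of these genes were called between KO and WT cells, but the complex V sum was lower in KO cells under TMM scaling. The sum, most of it from Atp5b and Atp5a1, was 2284 to 2327 CPM in KO PBS, against 2418 to 2527 in WT PBS, without overlap. Of the 17 complex V genes, 15 had a fitted change below 0. At an unadjusted p under 0.05 (edgeR quasi-likelihood test) 5 of the 17 passed, against 3058 of all 12261 genes, and 0 of the 17 were called. Of the 80, 0 were higher and 1 lower in KO PBS (1.25%), against 11.4% of all genes tested, 5.57% higher and 5.82% lower (edgeR quasi-likelihood test, Benjamini-Hochberg). No fitted change was past 1.5-fold, against 5.39% of all genes. At an unadjusted p under 0.05, 16 of the 80 passed, a lower share than the 3058 of all 12261 genes. No filter beyond 1 count gave 4 lower, while the DESeq2 Wald test gave 0. The gene called, Ndufs8, had 38.5, 37.9 and 37.4 CPM in KO PBS, against 43.0, 41.2 and 44.0 in WT PBS. The groups did not overlap, but the log2 change of -0.17 ± 0.06 was at the threshold (adjusted p 0.0481) and kept its call in 3 of 24 other settings. The libraries did not overlap for 19 genes, all with KO PBS below (23.8%), against 14.5% of all genes below and 13.2% above (27.7% in either direction), and the median log2 change was -0.04, against 0.00. With totals of all rows as scaling these medians were 0.07 and 0.12. The count called lower was 3 without WT PBS replicate 1. Of the 80 genes, 77 had a 95% interval within 1.5-fold and 56 within 1.2-fold. Of the 7 neutrophil markers tested, 2 were higher and 0 lower in KO PBS. All 8 summed to 239.9 to 268 CPM in KO PBS, against 203 to 224 in WT PBS. Of the 8 macrophage markers, 3 were higher and 0 lower. The part of these markers in the result was not tested.

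Under ADP-Hep, KO cells had more complex II mRNA than WT cells, and less complex V mRNA under TMM scaling. With totals of the rows used, 2 complex V genes were higher and 1 lower. The complex V sum, most of it from Atp5b and Atp5a1, was 2316 to 2411 CPM in KO ADP-Hep, against 2664 to 2768 in WT ADP-Hep. That sum was also lower in KO cells under PBS, at 2284 to 2327 CPM in KO PBS, against 2418 to 2527 in WT PBS. Of the 80 genes, 8 were higher and 20 lower in KO ADP-Hep than in WT ADP-Hep (35%), against 64.8% of all genes tested, 32.8% higher and 32% lower (edgeR quasi-likelihood test, Benjamini-Hochberg), and with totals of the rows used 25 were higher and 1 lower. The WT ADP-Hep libraries also enter the WT response and the KO ADP-Hep libraries the KO response, so these values are not independent of those above. The libraries did not overlap for 36 genes (45%), 10 with KO ADP-Hep above and 26 below, against 68.6% of all genes, 34.9% above and 33.7% below. In the same comparison 6 of 7 neutrophil markers tested were lower and 1 higher, and all 8 summed to 167 to 177 CPM in KO ADP-Hep, against 199 to 221 in WT ADP-Hep. Of the 8 macrophage markers, 4 were higher and 1 lower, with sums of 25801 to 26516 CPM in KO ADP-Hep, against 27284 to 27985 in WT ADP-Hep. The part of these markers in the result was not tested. In complex II, 3 of 4 genes were higher in KO ADP-Hep: Sdhb by 0.24 ± 0.05 (adjusted p 4.59e-05), Sdhd by 0.19 ± 0.05 (adjusted p 0.00233) and Sdha by 0.15 ± 0.04 (adjusted p 0.00249). All 3 kept their call in all 24 other settings except the test against a 1.5-fold change. In complex V, 10 of 17 were lower, among them Atp5b with -0.35 ± 0.04 (adjusted p 6.66e-08), which kept its call under both library totals. In KO PBS against WT PBS, Atp5b stood at -0.11 and was not called. In complex IV, 5 of 14 were lower, among them Cox7b with -0.25 ± 0.06 (adjusted p 0.000524), and in complex III 1 of 9, Cyc1. In complex I, 5 were higher and 4 lower, and Ndufa6, an accessory subunit, had the largest of the increases (0.29 ± 0.08, adjusted p 0.00191), while Ndufs7, a core subunit of the quinone module, rose by 0.17 ± 0.06 (adjusted p 0.0189). Without KO ADP-Hep replicate 3, 13 of the 80 were lower, and without WT ADP-Hep replicate 1, 5 were higher.

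Of the 13 subunits encoded in mitochondrial DNA, which partner these proteins in complexes I, III, IV and V, 6 were listed at 0 in all libraries: mt-Nd3, mt-Nd4l, mt-Co2, mt-Co3, mt-Atp6 and mt-Atp8. The other 7 summed to 8446, 8220 and 8704 CPM in WT ADP-Hep, against 6545, 6875 and 6349 in WT PBS. The WT groups did not overlap, yet 0 of the 7 were called (edgeR quasi-likelihood test; 3 were called higher by limma-voom and 7 in a fit of the WT groups alone). In KO cells the sums were 5266, 8757 and 7605 CPM in KO ADP-Hep and 3523, 8026 and 6602 in KO PBS. The KO groups overlapped, and replicate 1 was the lowest library in each. mt-Co1, the catalytic subunit of complex IV, changed by 0.36 ± 0.30 in WT cells, against 0.24 ± 0.30 in KO cells, and mt-Nd5, of complex I, by 0.31 ± 0.26 and 0.27 ± 0.26; neither passed the test.

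**Figure D4:**
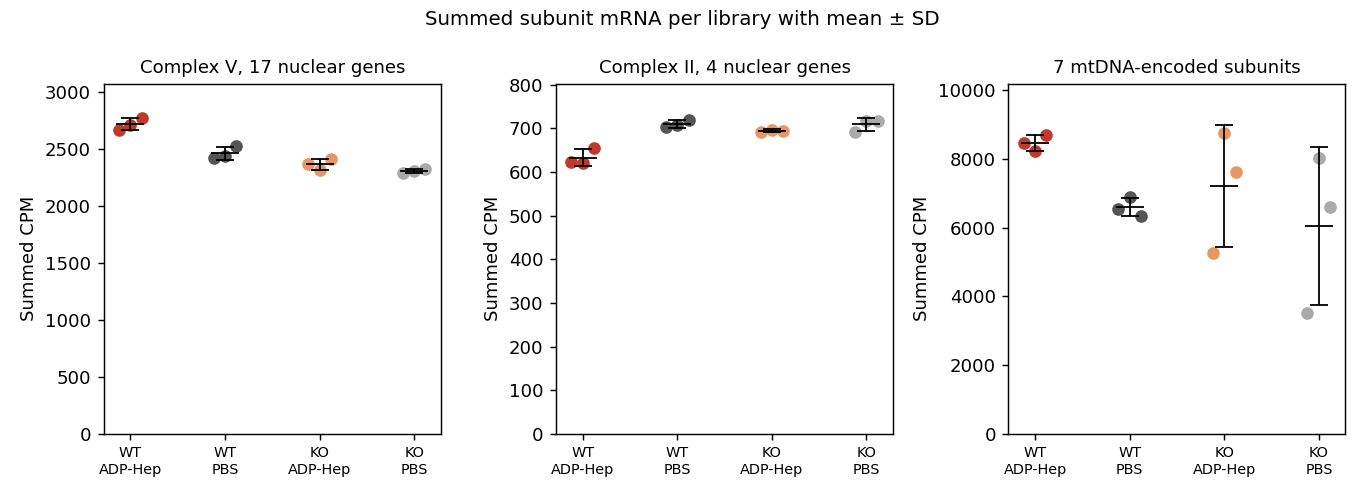
Summed CPM per library (points), with group mean and SD (bars), of the 17 complex V genes, the 4 complex II genes and the 7 subunits encoded in mitochondrial DNA with counts, for WT ADP-Hep, WT PBS, KO ADP-Hep and KO PBS, on axes that start at 0. Complex V is highest and complex II lowest in WT ADP-Hep under TMM scaling, and the mitochondrially encoded sum runs from 3523 to 8757 CPM within the KO libraries. Most of the complex V sum is from Atp5b and Atp5a1.

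Some genes around the chain changed by more than its subunits did. Of 44 assembly factors tested, which help build the complexes and are not part of them, 15 were higher and 7 lower in WT cells, and 10 were higher and 0 lower in KO cells (with totals of the rows used, 11 and 10 in WT cells and 16 and 0 in KO cells). Of all genes, 63.5% were called in WT cells and 28.9% in KO cells, and the lists below stand against the same shares. Tmem126b, an assembly factor of complex I, had 25.6, 25.7 and 23.0 CPM in WT ADP-Hep, against 34.4, 33.2 and 39.3 in WT PBS, and 45.2, 44.6 and 45.9 in KO ADP-Hep, against 34.2, 33.3 and 32.7 in KO PBS. It fell in WT cells (-0.52 ± 0.07, adjusted p 2.41e-07) and rose in KO cells (0.44 ± 0.07, adjusted p 1.35e-05), and no group overlapped with its PBS group. Coa5, needed for complex IV assembly, rose by 0.43 ± 0.04 in WT cells and 0.16 ± 0.04 in KO cells, and Ttc19, a complex III factor, by 0.77 ± 0.10 and 0.31 ± 0.11.

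Of 17 regulators of mitochondrial gene expression tested, 7 were higher and 3 lower in WT cells, and 2 were higher and 2 lower in KO cells (with totals of the rows used, 4 and 6 in WT cells and 3 and 2 in KO cells), against 31.9% of all genes higher and 31.6% lower in WT cells. Pprc1, a coactivator related to PGC-1, had 51.2, 51.9 and 60.3 CPM in WT ADP-Hep, against 29.5, 24.6 and 25.4 in WT PBS, without overlap (1.03 ± 0.07, adjusted p 3.68e-12). In KO cells it was not called, at -0.15 ± 0.08. Esrra, a nuclear receptor that drives respiratory genes, rose by 0.49 ± 0.06 in WT cells and 0.22 ± 0.06 in KO cells, and Twnk, the helicase of mitochondrial DNA, fell in both (-0.93 ± 0.12 and -0.51 ± 0.12). Ppargc1a, which encodes PGC-1alpha, had 5 counts in all libraries together and was not tested.

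Of 20 genes for electron carriers and for other entries into the chain, 9 were higher and 5 lower in WT cells, and 3 were higher and 0 lower in KO cells (with totals of the rows used, 5 and 5 in WT cells and 5 and 0 in KO cells), against the same 31.9% and 31.6% of all genes in WT cells. Gpd2, the glycerol 3-phosphate dehydrogenase that feeds electrons to ubiquinone, had 157, 176 and 178 CPM in WT ADP-Hep, against 36.6, 38.7 and 35.6 in WT PBS, and 36.9, 35.1 and 35.6 in KO ADP-Hep, against 27.4, 31.3 and 30.3 in KO PBS. No group overlapped with its PBS group, and the log2 changes were 2.20 ± 0.06 in WT cells and 0.27 ± 0.07 in KO cells (adjusted p 1.11e-20 and 0.00369). Cycs, which encodes cytochrome c, had 30.2, 32.0 and 35.8 CPM in WT ADP-Hep, against 14.0, 14.5 and 14.3 in WT PBS (1.18 ± 0.07, adjusted p 2.41e-13). In KO cells it was not called, at 0.21 ± 0.08. Coq8b, of ubiquinone synthesis, fell in WT cells (-0.56 ± 0.10, adjusted p 2.25e-05) and was not called in KO cells, at -0.07 ± 0.10.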

How the data were processed

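RNA of mouse BMDMs was sequenced after a stranded mRNA library kit, per the labels' protocols. The authors deposited raw counts, 1 table with a row per gene and no normalization, per the file headers. The submitters' processing notes name STAR, RSEM, featureCounts, DESeq2, Trim Galore and FastQC, with the builds mm10 and hg38. Which tool made the counts, with which strand setting and annotation, is not given in the sources used here. Below row 37642 the KO columns sat 1 row lower than the identifiers, so 19206 rows, from a margin above that point on, were left out (in the rows used, WT and KO mean log2 counts correlated at 0.996). Coordinates, exon overlaps and near-identical genes (BLAST+ 2.17.0, at least 95% identity over 150 bases) come from GENCODE release M21 on mm10.

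Counts were scaled by TMM, filtered by filterByExpr (12261 genes left) and fitted in 1 edgeR 4.0.16 quasi-likelihood model with robust estimation over 4 group means (R 4.3.3), with Benjamini-Hochberg adjustment over all genes tested and calls at adjusted p under 0.05. The standard error of a log2 change is its size over the root of the F statistic, an approximation. The biological coefficient of variation was 4.81%, and chi-square per degree of freedom between replicates was 1.96 to 10.5, so no pair matched within sampling noise. The model was also run on simulated counts in which few genes changed. That run cannot speak to the choice of scaling, and its outcome is not given here. Alternatives were DESeq2 1.42.0 size factors and Wald test, limma 3.58.1 voom, library totals, other filters, glmTreat, a replicate block, only the groups compared, all rows with the KO columns moved up, and each library left out; leaving out 2 KO libraries together was added after the data were seen.

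The genes and lists were chosen with earlier results of these data known. Named are, in each complex, the most abundant gene in CPM, up to 3 called genes with the smallest p in WT cells and 2 in KO cells, the 5 largest called increases and decreases of each comparison, paralog sets, Alpk1, and up to 3 called genes of each context list. A few others are named in passing, with values seen. A gene that this rule names is not reported here. Sequences and starts come from the RefSeq promoter table on GRCm38.p6.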

Additional observations from a re-analysis of the deposited data

Results flagged for a closer look

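The change after ADP-Hep differed between WT and KO cells by the test of the difference itself (WT minus KO, log2, edgeR quasi-likelihood test with Benjamini-Hochberg adjustment) for 8 subunit genes. These were 10% of the 80, against 49.5% of all genes tested. The difference was 0.96 for Atp5l, 0.25 for Cox6b1, 0.24 for Atp5b, 0.21 for Cox5a and 0.20 for Cyc1, and -0.24 for Sdhb, -0.23 for Ndufb3 and -0.14 for Sdha. Of 23 other settings without the test against a 1.5-fold change, the call held in 7 for Sdha, 11 for Cyc1 and 12 for Cox5a. It held in 14 for Ndufb3, 18 for Cox6b1, 22 for Atp5b and Sdhb, and 23 for Atp5l.

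The same test picked out Alpk1 itself, with a difference of 0.89, and 9 named genes around the chain. Among assembly factors the difference was -0.96 for Tmem126b, 0.45 for Ttc19 and 0.27 for Coa5. Among regulators it was 1.18 for Pprc1, 0.28 for Esrra and -0.42 for Twnk. The call for Twnk held in 13 of 23 other settings and in 5 of 12 fits without 1 library: it was lost without WT ADP-Hep replicate 1 or 2, WT PBS replicate 2 or 3, KO ADP-Hep replicate 1, or KO PBS replicate 1 or 3 (adjusted p up to 0.225, edgeR quasi-likelihood test), and with totals of all rows (adjusted p 0.14). The call for Esrra held in 20 of the 23 settings, that for Ttc19 in 19 and that for Coa5 in 22. Among carriers and side entries it was 1.93 for Gpd2, 0.97 for Cycs and -0.48 for Coq8b.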

How the results depend on the processing

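Counts are of the 80 genes called. In WT ADP-Hep against WT PBS, 27 higher and 2 lower became 6 and 14 with library totals of the rows used, and 4 were lower with a replicate block and library total. Leaving out 1 library gave 14 to 35 higher and 1 to 4 lower. In KO ADP-Hep against KO PBS, 10 higher and 0 lower became 24 higher with totals of the rows used and 2 with totals of all rows; 1 was lower by the DESeq2 Wald test, by limma-voom and with at least 1 CPM in 3 libraries, and leaving out 1 library gave 6 to 15 higher and 0 to 1 lower. For the difference between the responses, 5 higher and 3 lower became 1 and 28 with totals of the rows used, 3 and 0 with totals of all rows, and 3 and 1 with no filter beyond 1 count; 1 was lower by the Wald test, and leaving out 1 library gave 3 to 8 higher and 1 to 3 lower. In KO PBS against WT PBS, 1 lower became 4 with no filter and 0 with either library total, the Wald test, at least 1 CPM in 3 libraries, all rows with the KO columns moved up, or the groups compared alone; 1 was higher with totals of all rows, and leaving out 1 library gave 0 to 1 higher and 0 to 3 lower. In KO ADP-Hep against WT ADP-Hep, 8 higher and 20 lower became 25 and 1 with totals of the rows used; 4 were lower with totals of all rows, 4 higher by the Wald test and 5 with no filter, and leaving out 1 library gave 5 to 9 higher and 13 to 21 lower. Against a 1.5-fold change 0 genes were called in any comparison. In KO ADP-Hep against WT ADP-Hep, the log2 change turned to 0.14 for Ndufb9 and 0.01 (0.0067) for Cyc1 with totals of the rows used. The cause was not tested.

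Same-numbered libraries did not pair: of 15 pairs, 4 had a correlation of deviations over 0.1, from -0.37 to 0.22. With a replicate block, 5 were higher in the KO response, 1 lower in the difference between responses, 0 lower in KO PBS and 5 higher in KO ADP-Hep against WT ADP-Hep. With the block and library total, 3 were higher in the KO response, 10 higher in the difference between responses, and 1 higher and 5 lower in KO PBS. Without KO ADP-Hep replicate 1 and KO PBS replicate 1, chosen after seeing the data, 4 were higher in the KO response, 2 higher in the difference between responses, 0 lower in KO PBS and 5 higher in KO ADP-Hep against WT ADP-Hep. Cox6a2, Cox7a1, Atp5l and Ndufb4, at 1.29 to 3.92 CPM, had the widest errors. Low counts were not the only case, since Atp5j2, at 60.8 CPM, came next, ahead of Ndufb2 at 6.35 CPM.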
